A study of Homo sapiens with 12 samples.

Results

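The 10 genes described here are Toll-like receptors and the proteins they work with: TLR1, TLR2, TLR4, TLR6, TLR7, TLR9 and TLR10, the adaptor MYD88, the receptor-like protein CD180 and the chaperone UNC93B1. They were found in a table of 60664 genes by the gene symbol of each Ensembl identifier. Of the 10, 9 had at least 1 read in some library and 8 passed the filter on low counts that left 17349 genes for testing. TLR9 had no read in any library, and TLR2 had too few to be tested. The family was chosen by name, with the counts of TLR10 in TOM-1, which were lower after treatment, already known from these libraries. TLR10 is therefore described without p-values, and the tests on the other members describe these data and are not independent support.

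Toll-like receptors recognise conserved molecules of microbes and of damaged cells. TLR1, TLR2, TLR4, TLR6 and TLR10 act at the cell surface, where TLR1 and TLR6 each pair with TLR2 to bind lipoproteins and TLR4 binds lipopolysaccharide with its partner LY96 (MD-2). TLR7 and TLR9 sense single-stranded RNA and unmethylated CpG DNA in endosomes, which they reach with the help of UNC93B1. MYD88 couples nearly all receptors of the family to IRAK kinases, TRAF6 and NF-kB. CD180 is a receptor-like surface protein of B cells that lacks the signalling domain of the family and is carried by LY86 (MD-1). TLR10 is expressed mainly in cells of the B lineage, and its ligand is not settled.

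TOM-1 and RS4;11 are human B-cell acute lymphoblastic leukaemia lines. TOM-1 carries the Philadelphia chromosome, the BCR-ABL1 fusion, and RS4;11 a rearrangement of KMT2A. ADI-PEG20 is arginine deiminase coupled to polyethylene glycol, which depletes arginine by turning it into citrulline. The series asks about Philadelphia-positive leukaemia that lacks ASS1, the enzyme that starts the rebuilding of arginine from citrulline. The 4 groups were TOM-1 in control culture, TOM-1 after 24 h with 1000 ng/ml ADI-PEG20, RS4;11 in control culture and RS4;11 after 24 h with 1000 ng/ml ADI-PEG20. Each had 3 poly(A) RNA libraries, all labelled wild type, in medium with serum. The labels do not say that replicates were separate cultures, so p-values measure the spread between these libraries, which may be technical. Each line is a single model of its leukaemia type.

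The libraries held 18958144 to 35956959 counts. TOM-1 control replicate 3 stood apart: 14963 genes had reads there, against 19857 to 21997 in the other 11 libraries. Many results that involve it are given with and without it. Others, among them many values of pathway genes and comparisons between lines, are given with all libraries only. A value is from all libraries unless the text names those used or left out. HOXA9, HOXA10, HOXA7 and MEIS1, genes of KMT2A-rearranged leukaemia, were at 0 in every TOM-1 library and summed to 254 to 276 CPM (read counts relative to library size, with edgeR's TMM scaling) in RS4;11. All 9 B-lineage markers had reads in every group. They summed to 7739 to 10800 CPM in TOM-1 control and 6898 to 7265 in treated TOM-1. In RS4;11 they summed to 2809 to 2949 in control and 2957 to 3185 with ADI-PEG20. Monocyte markers, 8 genes, summed to 4.17 to 5.74 CPM in TOM-1 control, 0.728 to 1.07 in TOM-1 with ADI-PEG20, 16.4 to 21.7 in RS4;11 control and 14.1 to 17.3 in RS4;11 with ADI-PEG20, and FCN1 and FCGR3A were at 0 in all 4 groups. CD14 had 25 counts in TOM-1 control, all in replicate 3, and 0 in treated TOM-1. Plasmacytoid dendritic cell markers summed to 112 to 196 CPM in TOM-1 control and 204 to 224 in treated TOM-1, with CLEC4C and GZMB at 0, and with CD3D, CD3E, CD3G and CD2 of the 5 T-cell markers at 0 in TOM-1. TRAC was the one with reads there, so that the T-cell sum was 123 to 210 CPM in TOM-1 control and 135 to 151 in treated TOM-1, and the sum was 424 to 479 in RS4;11. Whether other cells or fractions bear on the values below was not tested. In bulk RNA, fewer cells of a type and less RNA per cell cannot be told apart.

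TLR10, TLR1 and TLR6 are neighbours on chromosome 4, all on the minus strand: in GENCODE 29 on GRCh38, TLR10 (ENSG00000174123) spans chr4:38772239-38782990, TLR1 (ENSG00000174125) chr4:38790677-38856817 and TLR6 (ENSG00000174130) chr4:38823715-38856817. The coding sequences of TLR1 and TLR6 were identical at 76.55% of aligned bases, with a longest identical run of 218 bases, while TLR10 shared 61.95% with TLR1 and 60.63% with TLR6. The first 120 bases of that run are shown because short reads from them fit TLR1 and TLR6 equally well. They start at coding base 1379 of TLR1 and coding base 1394 of TLR6. The aligned stretch of TLR10, from coding base 1373, has 41 differences from TLR1, marked by capitals.
TLR1: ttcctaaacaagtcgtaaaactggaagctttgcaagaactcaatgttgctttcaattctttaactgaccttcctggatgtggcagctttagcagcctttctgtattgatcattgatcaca
TLR6: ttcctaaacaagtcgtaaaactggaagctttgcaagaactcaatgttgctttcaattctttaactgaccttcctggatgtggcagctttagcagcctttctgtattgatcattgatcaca
TLR10: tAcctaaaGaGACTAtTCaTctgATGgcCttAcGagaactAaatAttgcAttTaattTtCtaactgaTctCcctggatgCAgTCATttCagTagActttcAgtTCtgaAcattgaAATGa
Of all 50-base windows of the TLR1 transcript, 8.5% also occurred in TLR6. For TLR10 and MYD88 the share found in any other gene was 1.15% and 0%. UNC93B1 shared 19.4% of its windows with other genes, the leading ones UNC93B pseudogenes, and its counts, like those of TLR1 and TLR6, are uncertain to that extent. TLR9 (chr3:52221080-52226163) lies on the same strand as AC097637.1 over 86.3% of its exonic bases. Both were at 0 counts in all 12 libraries. How the counting treated reads that fit more than 1 gene is not given in the sources used here. If such reads were left out, only the exonic bases of TLR9 outside AC097637.1 could give counts. The 0 would then cover that small part of the gene only, so no limit is given for TLR9. The floor used for the other genes, 3 counts, is 0.0853 to 0.166 CPM in a library.

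Of the 10 genes, 6 had a start-site window in the RefSeq table (GRCh38.p14). The 250 bases before the RefSeq start are shown for MYD88 (chr3:38138411-38138660, plus strand) and CD180 (chr5:67196800-67197049, minus strand). They are shown because values of both genes differed between lines and each window holds 1 match to a searched motif, in capitals. In MYD88 it is an interferon regulatory factor (IRF) motif, TTTC and TTTC with any 2 bases between them, on the opposite strand, found in 3.02% of 35116 windows. In CD180 the match is to TGANTCA, the AP-1 motif searched with any base (N) at its centre, here T, found in 6.57%.
MYD88: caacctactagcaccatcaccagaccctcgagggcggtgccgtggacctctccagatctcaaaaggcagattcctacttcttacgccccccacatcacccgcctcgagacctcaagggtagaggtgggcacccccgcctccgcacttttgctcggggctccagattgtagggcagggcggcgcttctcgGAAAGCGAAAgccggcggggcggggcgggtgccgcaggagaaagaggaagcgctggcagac
CD180: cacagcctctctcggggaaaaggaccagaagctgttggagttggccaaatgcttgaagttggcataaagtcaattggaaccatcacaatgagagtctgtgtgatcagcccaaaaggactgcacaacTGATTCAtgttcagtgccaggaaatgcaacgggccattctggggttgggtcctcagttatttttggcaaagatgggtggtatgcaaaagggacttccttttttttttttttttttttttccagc
Both strands were searched. The GGAA core of ETS-family factors, left in lower case, occurred in 92.7% of all windows, 3 times in MYD88 and 5 times in CD180. The NF-kB motif, GGG and TTTCC with any 2 bases between them (1.73% of windows), and the TATAAA box (10.7%) did not occur in either window.

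Per kilobase of exons, the order of the 10 genes was led in both lines by the chaperone and the adaptor. In RS4;11 control, UNC93B1 was at 50.1 ± 2.06 CPM per kb (SD, n = 3), MYD88 at 24.9 ± 2.46 and TLR10 at 6.63 ± 0.109. TLR1 at 4.28 ± 1.31 and TLR7 at 3.86 ± 0.307 followed and did not differ beyond their spread, nor did CD180 at 1.11 ± 0.225 and TLR6 at 0.921 ± 0.139. TLR4 was at 0.309 ± 0.0463 and TLR2 at 0.0292 ± 0.0372. RS4;11 with ADI-PEG20 had the same order. In TOM-1 control, UNC93B1 was at 51.9 ± 21.2 CPM per kb and MYD88 at 14.8 ± 1.75, and each receptor was below 1. TLR1 led the receptors at 0.858 ± 0.120, followed by TLR10 at 0.413 ± 0.258, CD180 at 0.370 ± 0.161, TLR7 at 0.138 ± 0.194 and TLR6 at 0.104 ± 0.107. Among the last 4, the library values of neighbours in that order overlapped. In TOM-1 with ADI-PEG20, TLR1 was at 0.625 ± 0.0373, TLR7 at 0.413 ± 0.143 and TLR10 at 0.0366 ± 0.0362.

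**Figure D1:**
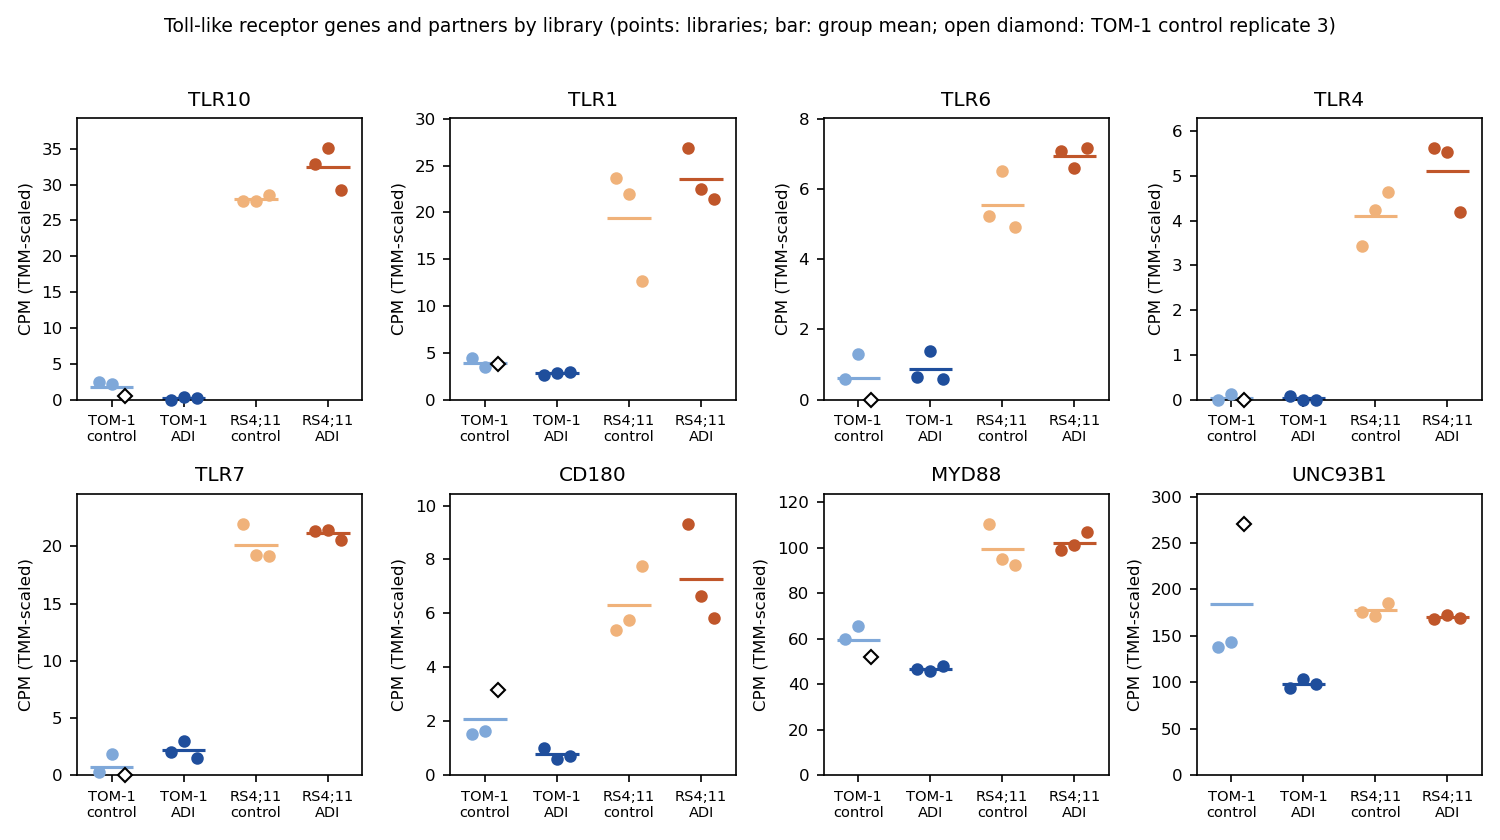
CPM of each tested gene (vertical axis, linear from 0) in the 12 libraries by group; points are libraries, bars group means and the open diamond TOM-1 control replicate 3. TLR10 lies between 27.7 and 35.1 CPM in RS4;11 and between 0 and 2.50 in TOM-1, and UNC93B1 is highest in TOM-1 control replicate 3.

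TLR10 had 88, 57 and 9 counts in the TOM-1 control libraries and 0, 8 and 4 in those with ADI-PEG20, or 2.50, 2.22 and 0.497 CPM against 0, 0.305 and 0.157. Every treated library was below every control library, and control replicate 3 was the closest to them. The fitted log2 fold change was -3.47 (SE 0.64), and -3.85 (SE 0.38) without control replicate 3. Summed counts, scaled for depth, gave a control-to-treated ratio of 12.2 with a 95% interval of 6.78 to 24.1, which covers counting error only. TLR10 passed the low-count filter through its RS4;11 libraries: among the 6 TOM-1 libraries alone it was not tested, and in the 5 left without control replicate 3 the fold change was -3.89 (SE 0.78).

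In RS4;11, TLR10 had 645, 673 and 596 counts in control and 825, 722 and 572 with ADI-PEG20, or 27.7, 27.7 and 28.5 CPM against 32.9, 35.1 and 29.3. The treated libraries were all above the control ones, by 0.21 on the log2 scale (SE 0.39), which was smaller than its error. Without TOM-1 control replicate 3, whose spread the model shares, it was again 0.21, with an SE of 0.15. The effect of ADI-PEG20 on TLR10 in TOM-1 minus that in RS4;11 was -3.68 on the log2 scale (SE 0.76), and -4.07 (SE 0.41) without TOM-1 control replicate 3.

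The other genes of the cluster showed no fall in TOM-1 of the size of that of TLR10. TLR1 had 158, 88 and 68 counts in TOM-1 control and 62, 75 and 76 with ADI-PEG20, or 4.49, 3.43 and 3.75 CPM against 2.65, 2.86 and 2.99. Its treated libraries were all lower, yet the difference of -0.46 (SE 0.24, adjusted p = 0.170, edgeR quasi-likelihood test with Benjamini-Hochberg adjustment over all genes) did not pass, with or without control replicate 3 (adjusted p = 0.121). TLR6 had 21, 33 and 0 counts in TOM-1 control and 15, 36 and 15 with ADI-PEG20, overlapping values whose log2 difference was 0.42 with all libraries and -0.08 without control replicate 3 (adjusted p = 0.716 and 0.938). In RS4;11, TLR1 was at 23.7, 21.9 and 12.6 CPM in control and 26.9, 22.5 and 21.5 with ADI-PEG20, which overlap, with control replicate 3 the lowest. TLR6 was at 5.24, 6.51 and 4.93 CPM there in control and 7.10, 6.61 and 7.17 with ADI-PEG20, all treated libraries being higher. Its log2 difference of 0.32 (SE 0.62) was smaller than its error. Without TOM-1 control replicate 3 the SE was 0.31, and the difference did not pass (adjusted p = 0.784). TLR10 made up 33.0% and 32.0% of the summed TLR10, TLR1 and TLR6 counts in TOM-1 control replicates 1 and 2 and 11.7% in replicate 3 (95% exact binomial interval 5.49% to 21.0%). With ADI-PEG20 the shares were 0%, 6.72% and 4.21%, below each control share, although the interval of control replicate 3 overlapped those of treated replicates 2 and 3. In RS4;11 TLR10 took 48.9% to 61.9% in control and 49.2% to 54.6% with ADI-PEG20.

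**Figure D2:**
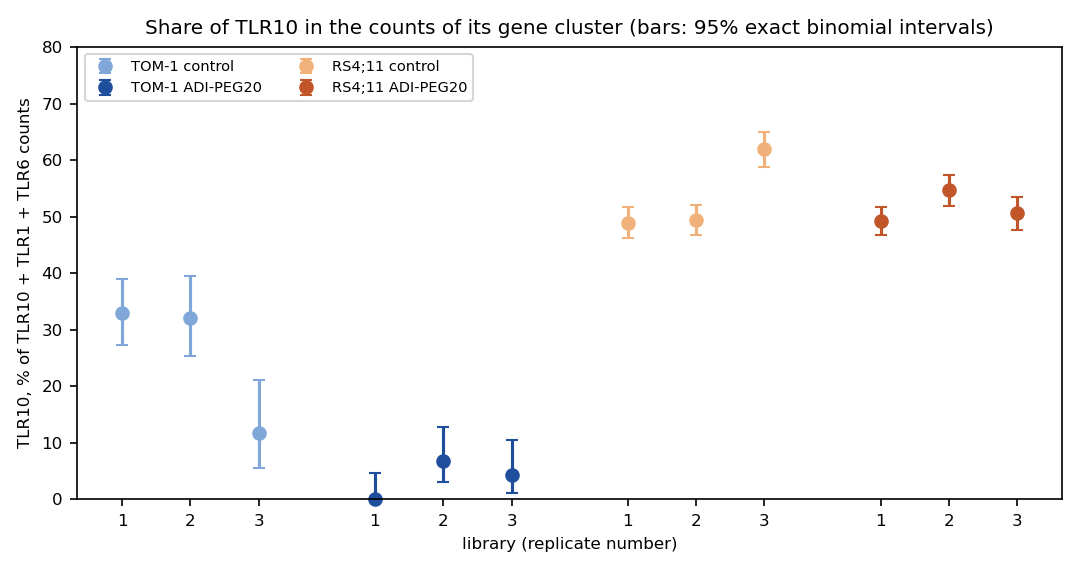
Share of TLR10 among the counts of TLR10, TLR1 and TLR6 in percent (vertical axis) for each of the 12 libraries, with 95% exact binomial intervals that cover counting error only. The treated TOM-1 libraries lie at 0% to 6.72% and the RS4;11 libraries at 48.9% to 61.9%.

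Around the cluster, no named protein-coding neighbour with reads in TOM-1 showed a fall of the size of that of TLR10. KLF3, a zinc-finger transcription factor 71.2 kb before TLR10, rose in TOM-1 with ADI-PEG20, from 11.1 ± 3.98 to 25.4 ± 1.39 CPM (log2 1.19, SE 0.23, adjusted p = 0.00217; 0.92 without control replicate 3). TBC1D1, a Rab GTPase-activating protein 633.1 kb before it, was at 110 ± 9.33 and 103 ± 2.84 CPM (log2 -0.09, adjusted p = 0.539; -0.17 and adjusted p = 0.0420 without control replicate 3). After the cluster, FAM114A1 had no read in TOM-1, and TMEM156, 109.9 kb away, was at 14.8 ± 2.56 and 23.0 ± 1.16 CPM (log2 0.64, adjusted p = 0.225; 0.75 and adjusted p = 0.0213 without control replicate 3).

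CD180 (ENSG00000134061, chr5:67179613-67196799) had 53, 42 and 57 counts in TOM-1 control and 23, 16 and 18 with ADI-PEG20, or 1.51, 1.64 and 3.15 CPM against 0.985, 0.611 and 0.708. All treated libraries were lower, and control replicate 3 was the highest of the 6. CD180 fell by 1.43 on the log2 scale (SE 0.37, adjusted p = 0.0114). Leaving out that library gave a decrease of 1.04 (log2 -1.04, adjusted p = 0.0205). The call was lost in the 6 TOM-1 libraries fitted alone (adjusted p = 0.108), and in those alone without control replicate 3 (adjusted p = 0.173). In RS4;11 CD180 was at 5.37, 5.77 and 7.75 CPM in control and 9.33, 6.66 and 5.84 with ADI-PEG20, which overlap. The difference between the lines' effects was -1.64 (adjusted p = 0.0509), and -1.25 without TOM-1 control replicate 3 (adjusted p = 0.0345).

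UNC93B1 (ENSG00000110057, chr11:67991104-68004982) was at 138, 143 and 271 CPM in TOM-1 control and 94.1, 103 and 97.9 with ADI-PEG20. Control replicate 3 was far above the other control libraries, and all treated libraries were lower than all control ones. UNC93B1 fell by 0.90 on the log2 scale (SE 0.21, adjusted p = 0.00703), a 1.87-fold decrease. Leaving out that library gave -0.52 (adjusted p = 1.03e-06), a 1.43-fold decrease. In the 6 TOM-1 libraries alone the adjusted p was 0.0684. In RS4;11 it was at 176, 172 and 186 CPM in control and 168, 173 and 170 with ADI-PEG20, overlapping values.

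MYD88 (ENSG00000172936, chr3:38138478-38143022) was at 59.9, 65.7 and 51.8 CPM in TOM-1 control and 46.6, 45.8 and 47.8 with ADI-PEG20. The groups did not overlap, and control replicate 3 was the lowest control library. The log2 difference was -0.34 (SE 0.12, adjusted p = 0.05003), which missed the threshold, and -0.43 (SE 0.08, adjusted p = 0.000268) without that library, which passed it. In RS4;11 MYD88 was at 110.5, 95.2 and 92.2 CPM in control and 98.8, 101 and 107 with ADI-PEG20, with overlap. The difference between the effects in the lines was -0.38 (adjusted p = 0.173), and -0.47 without TOM-1 control replicate 3 (adjusted p = 0.00277).

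TLR7 (ENSG00000196664, chrX:12867083-12890380) had 10, 48 and 0 counts in TOM-1 control and 48, 77 and 37 with ADI-PEG20, or 0.284, 1.87 and 0 CPM against 2.06, 2.94 and 1.46. The groups overlapped through control replicate 2. The log2 difference was 1.54 (SE 0.69, adjusted p = 0.111), 1.11 without control replicate 3 (adjusted p = 0.0393) and 3.51 without control replicate 2 (adjusted p = 0.000785), so single control libraries decided both its size and its call. In RS4;11 TLR7 was at 22.0, 19.2 and 19.2 CPM in control and 21.4, 21.5 and 20.6 with ADI-PEG20. Of its neighbours on the X chromosome, TLR8 and FRMPD4 had no read in any library, PRPS2, a phosphoribosyl pyrophosphate synthetase, had no read in TOM-1 control and 61.8 ± 9.67 CPM in RS4;11 control, and TMSB4X, the actin-binding thymosin beta, fell in TOM-1 with ADI-PEG20 by 1.31 on the log2 scale (adjusted p = 0.00264; by 0.80 without control replicate 3).

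TLR4 (ENSG00000136869, chr9:117704175-117724730) had 0, 3 and 0 counts in TOM-1 control and 2, 0 and 0 with ADI-PEG20, all at or under the floor, so no fold is given there. In RS4;11 it had 80, 103 and 97 counts in control and 141, 114 and 82 with ADI-PEG20, or 3.43, 4.24 and 4.64 CPM against 5.62, 5.54 and 4.20, which overlap. TLR2 (ENSG00000137462, chr4:153684070-153705702) had 0 to 1 count per library in TOM-1 and 0 to 9 in RS4;11.

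Of the 8 tested genes, 3 (CD180, UNC93B1 and TLR10, the last known when the family was chosen) were lower in TOM-1 with ADI-PEG20 and none higher, where 15.9% of all 17349 genes tested were called lower, 15.9% higher and 31.9% in either direction. Without control replicate 3, 4 were lower and 1 higher, beside 19.8% and 21.8% of all genes, or 41.6% in either direction. For 5 of the 8 (TLR10, TLR1, CD180, MYD88 and UNC93B1) every treated library was lower than every control one, which held for 20.1% of all genes. In RS4;11 none of the 8 was called by edgeR or by DESeq2, none reached an unadjusted p below 0.05 in edgeR, and 0.0% of all genes were called (325 at an unadjusted p below 0.05). Without TOM-1 control replicate 3, whose spread the model shares, 0.317% of all genes were called there and again none of the 8. Every treated RS4;11 library was above every control one for TLR10 and TLR6 (7.72% of all genes). Apart from TLR10, the difference between the lines' effects passed for no member with all libraries (6.05% of all genes called lower, 11.9% in either direction). It passed for CD180, MYD88 and UNC93B1 when TOM-1 control replicate 3 was left out (14.7% lower, 30.4% in either direction). TLR4 and TLR10 passed the filter through their RS4;11 counts, so these counts are no measure of the family.

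**Figure D3:**
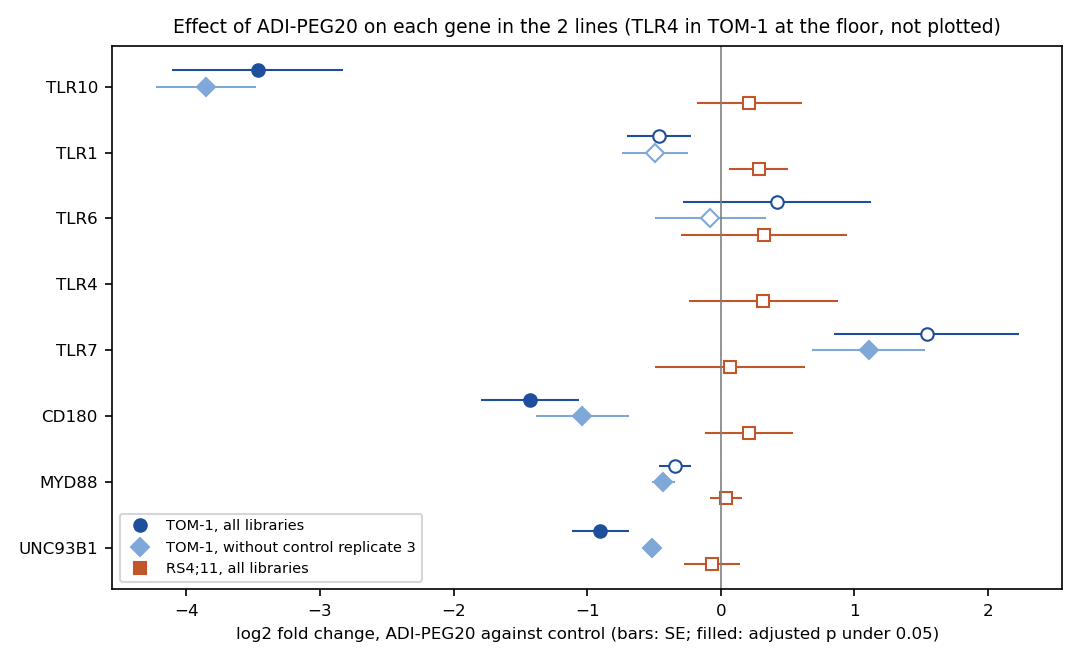
Log2 fold change of ADI-PEG20 against control (horizontal axis) for the 8 tested genes in TOM-1 with all libraries, in TOM-1 without control replicate 3 and in RS4;11; bars are standard errors and filled symbols passed an adjusted p of 0.05. TLR10 lies at -3.47 and -3.85 in TOM-1 and at 0.21 in RS4;11. Its filled symbols are no support, as its fall in TOM-1 was known when the family was chosen. TLR4 in TOM-1 was at the floor and is not plotted.

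The tested receptors and MYD88 had lower levels in TOM-1 than in RS4;11. In control culture TLR10 was at 1.74 ± 1.09 CPM in TOM-1 and 28.0 ± 0.461 in RS4;11 (SD, n = 3), TLR1 at 3.89 ± 0.543 and 19.4 ± 5.94, and TLR7 at 0.719 ± 1.01 and 20.1 ± 1.60. No TOM-1 library reached the lowest RS4;11 library for any of the 3, which held for 24.4% of all genes. TLR10 was lower in TOM-1 by 3.95 on the log2 scale (difference -3.95, SE 0.46), TLR7 by 4.76 (-4.76, SE 0.70) and TLR1 by 2.31 (-2.31, SE 0.24). TLR6 was at 0.628 ± 0.644 and 5.56 ± 0.839 CPM (log2 -3.08, adjusted p = 0.00443, and 0.0608 in the 6 control libraries fitted alone). CD180 was at 2.10 ± 0.911 and 6.29 ± 1.28 CPM (log2 -1.60, adjusted p = 0.00329). MYD88 was at 59.2 ± 6.99 and 99.3 ± 9.83 CPM (log2 -0.75, adjusted p = 0.000444). TLR4 had 3 counts in all of TOM-1 control against 280 in RS4;11 control, a ratio of 108 with a 95% interval of 36.4 to 525 for counting error.

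UNC93B1 was the exception in control culture. It was at 184 ± 75.1 CPM in TOM-1 and 178 ± 7.32 in RS4;11 (log2 0.05, adjusted p = 0.889). Without TOM-1 control replicate 3 the sign turned: TOM-1 was at 141 ± 3.70 CPM and the difference was -0.34 (SE 0.07, adjusted p = 0.000162). Of the 8 genes 7 were lower in TOM-1 with all libraries and all 8 without control replicate 3, where 18.4% and 27.5% of all genes were called lower, and 34.7% and 52.8% in either direction. Under ADI-PEG20, where that library enters only through the spread that the groups share, all 8 were lower in TOM-1, beside 24.0% of all genes called lower and 47.2% in either direction: TLR10 by 7.62 (-7.62, SE 0.61), CD180 by 3.24 (-3.24, SE 0.37), MYD88 by 1.13 (-1.13, SE 0.12) and UNC93B1 by 0.79 (-0.79, SE 0.21). Summed over the libraries, TLR10 had 12 counts in treated TOM-1 and 2119 in treated RS4;11, a ratio of 203 with a 95% interval of 116 to 394. The comparisons between lines and those of treatment share control libraries. TLR4 and TLR10 passed the filter through their RS4;11 counts, so the filter itself favoured finding them lower in TOM-1. The counts of TLR10 in treated TOM-1 were also known when the family was chosen. The numbers of genes called between lines are therefore no measure of the family.

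The rest of the pathway was described with 70 genes in 8 lists by role, 58 of which were tested. In TOM-1 with ADI-PEG20, 16 rose and 5 fell, beside 15.9% of all genes in each direction, and the median log2 difference was 0.30 beside 0.05 over all genes. Without control replicate 3, 24 rose and 8 fell, beside 21.8% and 19.8%, with a median of 0.20 beside 0.0017. In RS4;11 none was called by edgeR or DESeq2, and 2 had an unadjusted p below 0.05 in edgeR.

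Among partners of the receptors, both tested co-receptors rose in TOM-1, named here after their values had been seen. LY86, which carries CD180 to the surface, went from 17.8 ± 8.28 to 28.9 ± 3.18 CPM (log2 0.71, adjusted p = 0.0479), and the groups overlapped through control replicate 3, without which the difference was 1.15 (adjusted p = 1.71e-07). LY96, the partner of TLR4, went from 0.510 ± 0.357 to 4.76 ± 0.498 CPM (log2 3.13, adjusted p = 0.00110), in a line where TLR4 was at the floor. CD14, CD36 and LBP were not tested. Of 9 tested genes of folding, trafficking and cleavage, 2 fell in TOM-1, beside 15.9% of all genes, and none rose with all libraries (CTSB, a cathepsin named after its values were seen, rose by 0.47 without control replicate 3): HSP90B1 (gp96), the chaperone of most receptors of the family, from 766 ± 130 to 354 ± 0.725 CPM (log2 -1.11, adjusted p = 6.00e-05), and its co-chaperone CNPY3 from 225 ± 130 to 100 ± 1.81 (log2 -1.17, adjusted p = 0.00877). For CNPY3 the difference was -0.58 without control replicate 3, and the adjusted p was 0.0748 in the TOM-1 libraries alone. CTSL, a protease of endosomes, had no read in any library.

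None of the 4 other tested adaptors was called with all libraries, and 1 was called higher without control replicate 3, PIK3AP1 (log2 0.22, adjusted p = 0.0172), named after its values were seen. Of 19 kinases and ubiquitin ligases, 6 rose and 2 fell in TOM-1, beside 15.9% of all genes in each direction, and 10 and 4 without control replicate 3, beside 21.8% and 19.8%. PELI2, a Pellino ubiquitin ligase that acts on IRAK proteins, went from 39.3 ± 15.1 to 125 ± 5.24 CPM (log2 1.67, adjusted p = 0.000522). UBE2N, the ubiquitin-conjugating enzyme that works with TRAF6, went from 195 ± 9.91 to 117 ± 10.6 (log2 -0.73, adjusted p = 0.000431), and NUDT4 on the opposite strand covers 39.5% of its exonic bases. The others, named after their values were seen, were IRAK4 (log2 0.81), TRAF6 (0.86), TAB2 (0.88), CHUK (0.63) and IKBKB (0.42), which rose, and BTK (-0.35), a kinase of B-cell receptor signalling, which fell.

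Of 8 transcription factors, 4 rose and none fell, beside 15.9% of all genes in each direction. NFKB2, the NF-kB subunit of the non-canonical branch, went from 26.5 ± 9.67 to 83.4 ± 2.89 CPM (log2 1.66, adjusted p = 0.000147), together with its dimer partner RELB, from 14.9 ± 6.42 to 42.1 ± 3.11 (2.83-fold, adjusted p = 0.000658). The others, named after their values were seen, were the interferon regulatory factors IRF5 (log2 0.75) and IRF7 (1.23). Of 9 inhibitors, 2 rose and 1 fell, shares near the 15.9% of all genes in each direction: TNFAIP3 (A20), a deubiquitinase, went from 172 ± 60.4 to 614 ± 18.9 CPM (log2 1.83, adjusted p = 0.000352), CYLD from 39.3 ± 11.4 to 101 ± 3.45 (log2 1.36, adjusted p = 0.000439), and SIGIRR, a decoy-like receptor, from 83.6 ± 43.8 to 37.8 ± 0.355 (log2 -1.14, adjusted p = 0.00683). SIGIRR's difference was -0.63 without control replicate 3, and its adjusted p was 0.0630 in the TOM-1 libraries alone. Of 6 tested NF-kB target genes, 2 rose, beside 15.9% of all genes, and 1, CD83, was also called lower without control replicate 3 (log2 -0.62). ICAM1, an adhesion molecule, went from 2.50 ± 0.975 to 17.6 ± 3.18 CPM (log2 2.79, adjusted p = 4.42e-05), and antisense genes cover 23.6% of its exonic bases. BIRC3 (cIAP2), the other of the 2 and named after its values were seen, had 6 counts over the 3 control libraries and 166 over the treated ones. With so few control counts, it may have passed the low-count filter through the treated TOM-1 libraries, which would favour an upward call. It is also among the 16 of 58 tested pathway genes that rose.

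**Figure D4:**
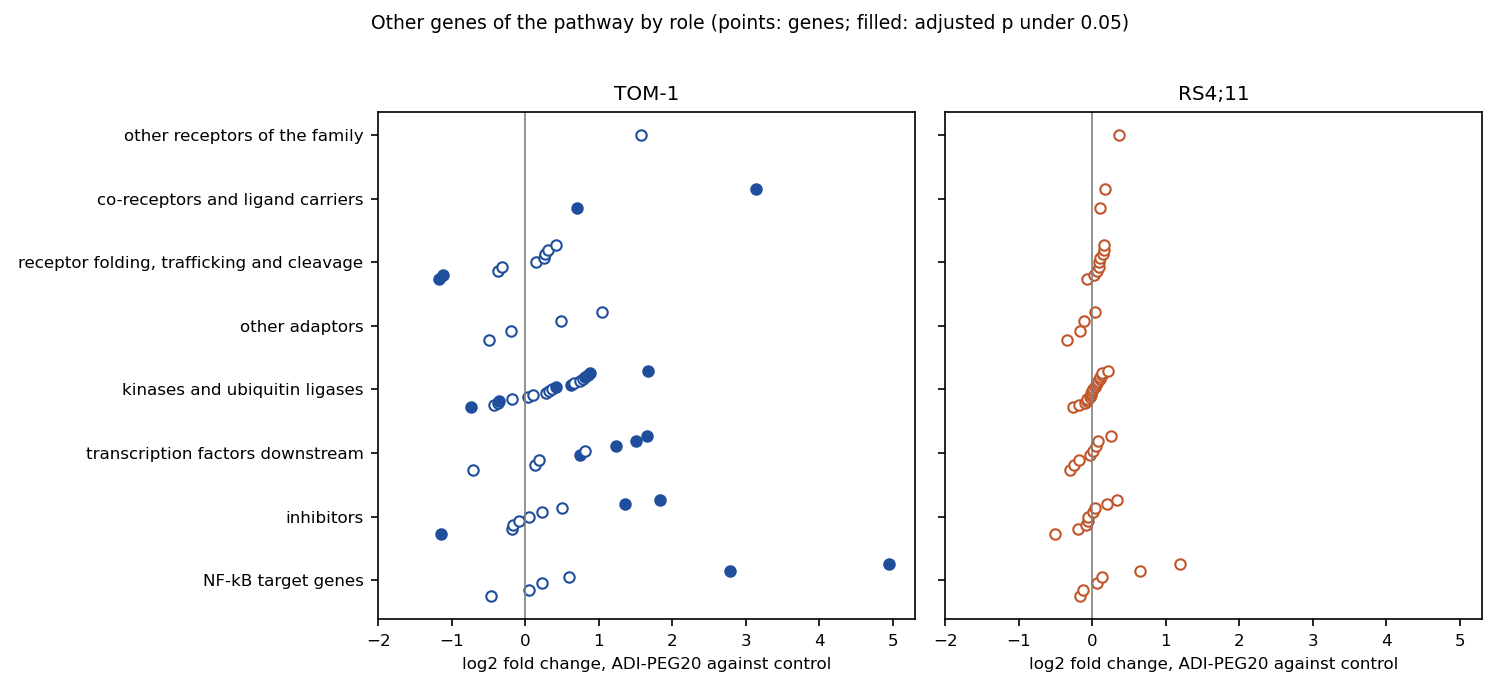
Log2 fold change of ADI-PEG20 against control (horizontal axis) for the 58 tested pathway genes by role, in TOM-1 and in RS4;11; points are genes and filled points passed an adjusted p of 0.05. In TOM-1 16 genes passed upward and 5 downward, and in RS4;11 none passed; BIRC3, at 4.95 in TOM-1, rests on 6 control counts.

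The effect of ADI-PEG20 itself differed between the lines for 13 pathway genes, 11 of them upward in TOM-1 relative to RS4;11 and 2 downward, beside 5.89% and 6.05% of all genes. The median over the 58 genes was 0.27, and 0.04 over all genes. The difference was 2.95 for ICAM1 (adjusted p = 0.000914), 1.90 for NFKB2 (adjusted p = 0.00190), 1.68 for RELB (adjusted p = 0.00797) and 1.53 for PELI2 (adjusted p = 0.0166), and it was -1.04 for HSP90B1 (adjusted p = 0.00276) and -0.71 for UBE2N (adjusted p = 0.0113). PELI2 lost its call without TOM-1 ADI-PEG20 replicate 2, RS4;11 control replicate 1 or 2, or RS4;11 ADI-PEG20 replicate 3 (adjusted p 0.0510 to 0.0580). Without TOM-1 control replicate 3 the count was 26, beside 15.7% of all genes upward and 14.7% downward, and without any 1 of the 9 libraries of the other groups it was 6 to 8. TNFAIP3, CYLD and BIRC3 in RS4;11 with ADI-PEG20 were at 9.62 ± 0.455, 18.9 ± 1.53 and 0.281 ± 0.268 CPM.

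Between the lines in control culture, 17 pathway genes were higher and 15 lower in TOM-1, beside 16.2% and 18.4% of all genes, with a median of -0.05 beside 0.01. Without control replicate 3 the counts were 23 and 24, beside 25.4% and 27.5%. TNFAIP3 was at 172 ± 60.4 CPM in TOM-1 and 7.60 ± 2.32 in RS4;11 (log2 4.50, adjusted p = 2.73e-07), CD83, a surface protein of activated B cells, at 21.1 ± 4.28 and 2.52 ± 0.836 (log2 3.06), NFKBIZ, an atypical NF-kB regulator, at 15.9 ± 9.01 and 3.00 ± 1.63 (log2 2.42), and CNPY4, a relative of CNPY3, at 26.4 ± 4.95 and 8.04 ± 1.06 (log2 1.71). TIRAP, the adaptor that brings MYD88 to surface receptors, was at 0.640 ± 0.558 CPM in TOM-1 and 5.59 ± 1.00 in RS4;11 (log2 -3.05, adjusted p = 0.0249), with antisense genes over 22.5% of its exonic bases. IRAK2 was at 1.02 ± 1.14 and 6.66 ± 1.15 (log2 -2.77, adjusted p = 0.00681), ICAM1 at 2.50 ± 0.975 and 8.36 ± 1.49 (log2 -1.72), and PIK3AP1 (BCAP), an adaptor of B-cell and Toll-like receptors, at 247 ± 87.6 and 438 ± 41.3 (log2 -0.83, adjusted p = 0.0107). The calls of TIRAP, IRAK2 and PIK3AP1 were lost in the 6 control libraries fitted alone (adjusted p = 0.0573, 0.0614 and 0.0913), and that of TIRAP also without RS4;11 control replicate 1 or 2 (adjusted p = 0.0610 and 0.0650). For IRAK2 the difference was -4.05 without TOM-1 control replicate 3.

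The remaining receptors of the family had low values in both lines. TLR3, the receptor of double-stranded RNA and the only one of them that was tested, was at 0.281 ± 0.284 CPM in TOM-1 control and 2.68 ± 0.640 in RS4;11 control (log2 -3.12, adjusted p = 0.00707), and its difference of 1.58 in TOM-1 with ADI-PEG20 did not pass (adjusted p = 0.133). TLR5 had 2 counts in all, both in RS4;11 with ADI-PEG20, and TLR8 had none.

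Under ADI-PEG20, 26 pathway genes were higher and 11 lower in TOM-1 than in RS4;11, beside 23.1% and 24.0% of all genes, with a median of 0.16 beside 0.02. The counts were 27 and 18 without TOM-1 control replicate 3, beside 5760 and 5771 of all 18321 genes tested there. TNFAIP3 was at 614 ± 18.9 CPM in TOM-1 and 9.62 ± 0.455 in RS4;11 (log2 5.99), followed by CYLD (log2 2.42), NFKBIZ (2.34) and PELI2 (2.22). IRAK2 (log2 -2.21, adjusted p = 0.0136), IKBKG (-0.86), CNPY3 (-0.83, adjusted p = 0.0301) and BTK (-0.67) were the lower ones by the naming rule. The call of IRAK2 was lost without TOM-1 ADI-PEG20 replicate 1 (adjusted p = 0.0507), and that of CNPY3 without any 1 TOM-1 ADI-PEG20 library or RS4;11 ADI-PEG20 replicate 1 or 2 (adjusted p 0.0515 to 0.0720).

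Over the 12 libraries, the genes whose log2 CPM followed that of TLR10 most closely, among 12732 searched, were PGRMC1 (Pearson r = 0.987), SQLE, CYFIP1 and PRPF4. Without TOM-1 control replicate 3 they were CTXN1 (r = 0.993), CETN3, PCYOX1 and HMGN3, so none of the 4 remained. For MYD88 they included DNA2 (r = 0.993), PRKCD and KCNQ5-DT, and without that library DNA2 (r = 0.993), MSMO1 and MT-TC. For CD180 they included ANP32B (r = 0.984), GMNN and TAF15, and without it they were BCL9 (r = 0.990), RGS19, ADGRG5 and EPM2A. These values describe libraries that fall into 4 groups of 2 lines.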

How the data were processed

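Poly(A) RNA of 12 libraries, 3 in each of 4 groups taken from the sample titles, was analysed. The deposited values are raw counts per Ensembl gene in 1 table of the whole series, without normalization by the authors. The submitters' processing notes name STAR, SAMtools, featureCounts and hg38, with no role or order. Strand, annotation release and the treatment of reads that fit several genes are not given in the sources used here.

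Symbols were found for 60463 of 60664 identifiers, and GENCODE 29 exon lengths for 58396. Counts were fitted in R 4.3.3 with edgeR 4.0.16: filterByExpr, trimmed mean of M values, 1 group-means model over all libraries, quasi-likelihood F tests (glmQLFit, glmQLFTest), Benjamini-Hochberg adjustment over 17349 genes (18321 without TOM-1 control replicate 3) and a threshold of 0.05. The standard error was the log2 fold change divided by the square root of F. Fits were tested on simulated data. A library with 3 counts or fewer is at the floor. Intervals cover counting error only, at 95%. Coding sequences were aligned with MAFFT 7.526, and figures drawn with matplotlib 3.10.9.

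Named are all 10 genes and, per comparison, up to 4 pathway genes with the largest log2 difference in each direction among those called, with a mean of at least 5 CPM in a group and no overlap of libraries. Also named are the nearest 2 protein-coding neighbours on each side, and the 4 genes most correlated with TLR10, MYD88 and CD180 (log2 CPM, prior count 2, mean of at least 1 CPM), some of which are not reported here. The members and lists were chosen with earlier results of these data known.

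Alternatives were DESeq2 1.42.0 (its size factors within edgeR, and its own Wald test), upper-quartile scaling, filtering at a mean of 10 counts or not at all, a block for the replicate number, groups fitted alone, each library left out, and, added after the data were seen, the TOM-1 libraries alone without control replicate 3.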

Additional observations from a re-analysis of the deposited data

Results flagged for a closer look

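The effect of ADI-PEG20 differed between TOM-1 and RS4;11, by the interaction term of the edgeR quasi-likelihood fit, for 6 named pathway genes. The effect in TOM-1 minus that in RS4;11, on the log2 scale, was 2.95 for ICAM1, 1.90 for NFKB2, 1.68 for RELB and 1.53 for PELI2. It was -1.04 for HSP90B1 and -0.71 for UBE2N. PELI2 lost its call in 4 of 12 fits with 1 library left out (adjusted p up to 0.0580). Without TOM-1 control replicate 3 the values of the 6 genes were 2.68, 2.24, 2.09, 1.25, -0.90 and -0.68 in the order above. Each had an adjusted p below the threshold in that fit. For TLR10, chosen with its lower counts in treated TOM-1 known, the same difference was -3.68 (-4.07 without that library), given as a description with no test. Dixon's test for a single outlying library was not run, as groups of 3 are below the size it was set for.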

How the results depend on the processing

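The log2 difference of TLR10 in TOM-1, a description, was -4.41 to -2.95 with 1 library left out. In TOM-1, 3 members were called (TLR10, CD180 and UNC93B1). The number was 0 when the groups were fitted alone, where TLR10 was not tested. It was 5 without TOM-1 control replicate 3, with or without the block. Leaving out 1 library gave 3 to 5. In the difference between lines the number was 1, TLR10 itself. It was 2 under DESeq2 size factors, upper-quartile scaling, no filter or the filter on a mean of 10 counts. It was 4 by DESeq2's Wald test or without TOM-1 control replicate 3 with the block. Leaving out 1 library gave 1 to 4. TLR10 was in each of these counts with its fall in TOM-1 already known, so they describe these data only. For pathway genes the count in TOM-1 of 21 became 32 without TOM-1 control replicate 3 with the block (18 to 32 with 1 library left out). It became 34 in the TOM-1 libraries alone without that library. The count in RS4;11 of 0 became 1 without it with the block. That of the difference, 13, became 20 by DESeq2 and 27 without that library with the block (6 to 26 with 1 library left out). Between lines in control culture it was 32, 14 with the groups alone, and 21 to 47 with 1 library left out. MYD88 passed in TOM-1 under DESeq2 size factors (adjusted p = 0.0266), upper-quartile scaling (0.0138), the filter on a mean of 10 counts (0.0371) and DESeq2 (0.00326). Over all genes, the 5527 called in TOM-1 became 2639 with the groups alone and at most 8181. The 0 in RS4;11 became at most 209. The 2072 in the difference became 1169 to 5719, and the 6014 between lines in control culture 3548 to 9681. The causes were not tested, but fits on fewer libraries have fewer degrees of freedom.

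Signs turned for low or small values. In TOM-1, TLR4 had 0 to 3 counts per library, all at or under the floor. Its fitted values carry no direction there or in the difference between lines. In TOM-1 they were 2.58, 0.06 and 0.05 without control replicate 2 and ADI-PEG20 replicates 2 and 3 (-3.06 to 2.58 over all such fits). TLR6 gave -0.08 and -0.11 without control replicate 3 and ADI-PEG20 replicate 2 (-0.11 to 1.27). It gave -0.015 without control replicate 3 with the block and -0.12 in the TOM-1 libraries alone without that library. In RS4;11, MYD88 gave -0.0080 without control replicate 3 (up to 0.14) and CD180 -0.0038 without ADI-PEG20 replicate 1 (up to 0.39). In the difference between lines, TLR4 gave 2.26 without TOM-1 control replicate 2 (-3.39 to 2.26), and TLR6 -0.0081, -0.40, -0.44 and -0.07 without TOM-1 control replicates 1 and 3, TOM-1 ADI-PEG20 replicate 2 and RS4;11 control replicate 2 (up to 0.95), and -0.37 without TOM-1 control replicate 3 with the block. UNC93B1 between lines in control culture gave -0.34 without TOM-1 control replicate 3, -0.015 without RS4;11 control replicate 2 (up to 0.18) and -0.33 without TOM-1 control replicate 3 with the block.

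Deviations of same-numbered libraries correlated at -0.05 to 0.23, and at 0.07 to 0.23 between the 2 RS4;11 groups. Differently numbered libraries were not compared, so whether the numbers pair the libraries was not tested. With the replicate block, 3 members were called in TOM-1 (TLR10, CD180 and UNC93B1), 0 in RS4;11 and 1, TLR10, in the difference. For pathway genes the numbers were 20, 0 and 14. Of all 17349 genes, 2751 were called higher and 2573 lower in TOM-1, and 992 and 947 in the difference. Depth limits TLR2 and TLR4 in TOM-1, with 0 to 3 counts per library, and for TLR9 the counting of reads shared with AC097637.1 is not known.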

Other observations

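Some of the 9 B-lineage markers also differed in TOM-1 with ADI-PEG20, in both directions, where 31.9% of all genes were called in either direction. Only some are named, so they are no account of the whole list. VPREB1, part of the surrogate light chain, fell by 1.22 on the log2 scale (adjusted p = 0.0157) and CD74, the invariant chain, by 1.04 (adjusted p = 0.00129), while EBF1, a B-lineage transcription factor, rose by 0.98 (adjusted p = 0.00535). Of the monocyte markers, CSF1R fell by 3.20 (adjusted p = 4.49e-06). LYZ, CD163 and VCAN went the other way, from no read in TOM-1 control to some reads in treated TOM-1. These genes were named after their values had been seen. Without TOM-1 control replicate 3 the log2 values were -0.50 for VPREB1, -0.73 for CD74, 0.70 for EBF1 and -3.18 for CSF1R. Their part in the values of the Toll-like receptor genes was not tested.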
